A study of Mus musculus with 6 samples.

Results

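Genes that take up, store, export and sense iron were examined in bone-marrow-derived macrophages (BMDMs) kept in high salt. The 9 genes were chosen by name for their known roles: Tfrc, Slc11a2, Slc11a1, Slc40a1, Fth1, Ftl1, Ncoa4, Ireb2 and Aco1. Earlier results of these data were known when that choice was made, so it was not blind to them. The genes are 9 of 57010 annotated genes, and all 9 are among the 15903 genes that reached a total count of 10 and were tested. Bone marrow came from Cx3cr1GFP mice, a knock-in reporter line on the C57BL/6J background whose age is not given in the sources used here, and all cultures grew for 7 days in VLE-RPMI medium with 10 ng/ml M-CSF, the growth factor that turns marrow precursors into macrophages. The salt group (NaCl) then received 62 mM excess NaCl for 24 h and the control group (unstim) did not. Marrow from each of 3 mice gave 1 library of each group, so there were 3 libraries per group. Non-adherent cells were thrown away before polyadenylated RNA was sequenced, and no other solute was sequenced as an osmotic control, so sodium and osmolarity cannot be told apart here.

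Macrophages hold much of the body's recycled iron. Iron bound to transferrin enters through the transferrin receptor (Tfrc) and is moved out of endosomes by DMT1 (Slc11a2). The related transporter NRAMP1 (Slc11a1) acts in phagosomes. Iron that is not used is kept inside ferritin, a shell of heavy (Fth1) and light (Ftl1) chains, is released when NCOA4 (Ncoa4) carries ferritin to lysosomes, and leaves the cell only through ferroportin (Slc40a1). When iron is scarce, the iron regulatory proteins IRP1 (Aco1) and IRP2 (Ireb2) bind stem-loops called iron-responsive elements. Binding in a 5′ untranslated region (UTR) blocks translation and binding in a 3′ UTR can stabilise the message, so protein levels of ferritin and ferroportin can move without their RNA.

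The elements are shown because they are the part of these messages that the regulatory proteins read. Each was found by a search of the GENCODE M21 transcripts on GRCm38 for a C, 5 bases, the loop CAGTGN and 5 bases that pair with the first 5, with G-T pairs allowed and the transcript strand searched. The loop is in capitals and 12 bases are printed on each side, 5′ to 3′.
Fth1: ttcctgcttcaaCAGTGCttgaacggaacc
Ftl1: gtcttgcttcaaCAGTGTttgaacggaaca
Slc40a1: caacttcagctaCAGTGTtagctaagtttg
Tfrc element 1: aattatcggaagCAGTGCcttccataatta
Tfrc element 2: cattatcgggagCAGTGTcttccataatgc
Tfrc element 3: ctatatcggagaCAGTGAtctccatatgtt
Tfrc element 4: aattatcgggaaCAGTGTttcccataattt
Slc11a2: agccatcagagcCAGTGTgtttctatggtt
The first 3 lie in exon 1, in the 5′ UTR: Fth1 at chr19:9982732-9982761 on the plus strand, Ftl1 at chr7:45459778-45459807 on the minus strand, and Slc40a1 at chr1:45925464-45925493 on the minus strand. The 4 Tfrc elements that the search returned lie in the 3′ UTR, in exon 19 on the plus strand, at chr16:32631219-32631248, chr16:32631598-32631627, chr16:32631663-32631692 and chr16:32631710-32631739. An element that departs from the pattern searched would be missed. The Slc11a2 element, at chr15:100395152-100395181 on the minus strand, is in the 3′ UTR of 1 of its transcripts, Slc11a2-205, in exon 16. It pairs at 4 of the 5 positions and was found only after the search was loosened to 4 pairs, once the stricter search had returned nothing for that gene. With all 5 pairs, 160 of 21901 protein-coding genes (0.731%) and 4 of the 9 iron genes held the motif in a UTR. With at least 4 pairs it was in 1077 genes (4.92%) and 5 of the 9. No match was found in the UTRs of Slc11a1, Ireb2, Aco1 or Ncoa4.

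Total counts ranged from 8520433 to 20123570 in the control libraries and from 4088065 to 11610020 in the NaCl libraries, the smallest being NaCl 3. Macrophage identity was checked with 8 markers, all tested, whose summed level was 15013 to 16887 CPM (a gene's count as a share of the library total, per 1e6 counts, after scaling by TMM library factors) in control and 23957 to 31399 in NaCl. Lyz2, which codes for lysozyme, made up most of that sum (9817 ± 524 CPM against 19148 ± 3609, SD, n = 3) and rose, as did the endotoxin co-receptor Cd14. The M-CSF receptor Csf1r was the next most abundant, at 2083 CPM against 3443. It was higher in all 3 mice (adjusted p = 0.0523 by edgeR, 0.000298 with the replicate block). Not all markers moved with that sum: 4 of 8 had a log2 fold change below 0 and the median of the list was 0.01. The mannose receptor Mrc1 went from 366 ± 258 to 185 ± 136 CPM and was lower in all 3 mice (adjusted p = 0.505 by edgeR, 1.40e-05 with the replicate block), and the macrophage surface gene Adgre1 stood at 1614 ± 215 and 1406 ± 206 CPM. Markers of dividing cells summed to 1420 to 1599 CPM in control and 1805 to 2464 in NaCl. Of these, 2 of 10 were higher past the threshold (0.478% of all genes were) and 8 of 10 with pairing by mouse (4.6% of all genes). Red cell precursors, which are rich in iron genes, were barely present: 2 of 10 erythroid markers reached the count minimum, the anion exchanger gene Slc4a1 had no count in any library, and the sums were 1.31 to 1.99 and 0.479 to 3.24 CPM. Neutrophil markers summed to 319 to 592 and 314 to 413 CPM, and 11 of 12 had a log2 fold change below 0. None (0) passed without pairing, 2 had an unadjusted p under 0.05, DESeq2 called 0, and 3 fell in edgeR with the block: Csf3r, Ngp and Mpo. Of all genes, 12.6% had an unadjusted p under 0.05. Those that fell were 0.176% without pairing, 0.975% by DESeq2 and 4.3% with the block. Of 8 monocyte markers, whose sums overlapped between groups, 1 rose without pairing, Ifitm6, from 2.61 ± 0.211 to 28.3 ± 18.2 CPM (adjusted p = 0.00997 by edgeR). Over all genes, 0.478% rose in that fit. With the block 2 rose (4.6% of all genes did), Ifitm6 and F13a1 (adjusted p = 0.0390 by edgeR with the replicate block). In the fit without it, 4 of the 8 had a log2 fold change below 0. The part of these marker shifts in the results that follow was not tested, and in bulk RNA fewer cells of a type cannot be told apart from less RNA per cell.

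Transcripts of the iron exporter Slc40a1 and of the phagosomal transporter Slc11a1 showed the largest differences among the 9 genes. For both, all 3 NaCl libraries were below all 3 control libraries. Neither passed the main test, which took no account of the pairing by mouse, though both passed with pairing and by DESeq2. By edgeR's quasi-likelihood test on all 6 libraries without pairing, with Benjamini-Hochberg adjustment over all 15903 genes, 0 of 9 iron genes were higher (0.478% of all genes were) and 0 of 9 were lower (0.176% of all genes), while 3 of 9 had an unadjusted p under 0.05 (12.6% of all genes did). A replicate block for mouse in the same test, which uses the fact that both libraries of a number come from 1 animal, gave 2 of 9 that fell, Slc40a1 and Slc11a1 (4.3% of all genes fell), and 0 of 9 that rose (4.6% of all genes did). DESeq2 without the block called the same 2 lower (0.975% of all genes) and 0 higher (1.54%). For 3 of 9 genes, the third being Aco1, every control library was above every NaCl library, against 10.1% of all genes. The reverse held for 0 of 9, against 8.92% of all genes. The median log2 fold change of the 9 genes was -0.25, beside -0.01 over all genes tested. Below 0 were 8 of 9, beside 8083 of all 15903 genes. Among those 8, Slc11a2, Fth1 and Ireb2 changed sign in some of the other fits. Slc11a1 is among the phagocytosis genes in a heat map of the study, which were picked from these samples, so its direction is not independent evidence.

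**Figure D1:**
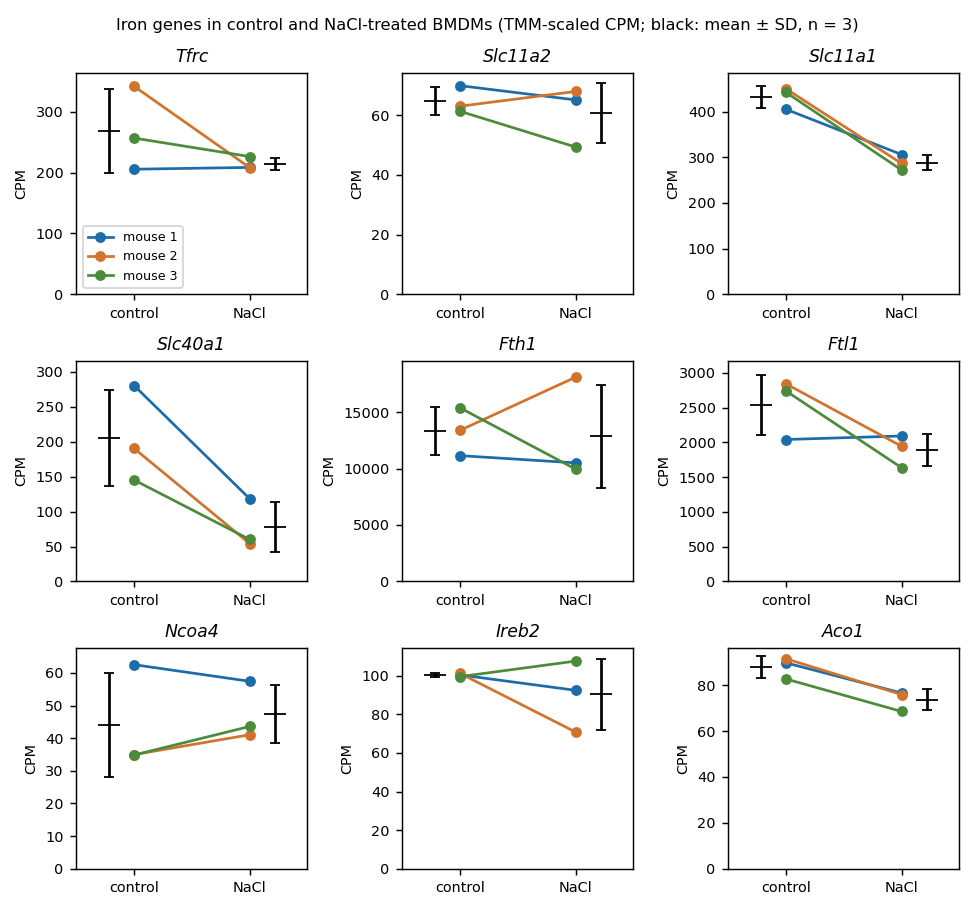
Level of each iron gene in CPM (vertical axis, from 0) in the control and NaCl library of each mouse, with a line joining the libraries of 1 mouse and black marks for the mean ± SD (n = 3). Slc40a1, Slc11a1 and Aco1 have no overlap between groups, while the lines of Tfrc, Slc11a2, Fth1, Ftl1, Ncoa4 and Ireb2 run in both directions.

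On the export side, Slc40a1 (ENSMUSG00000025993.11, chromosome 1), the only known iron exporter of vertebrate cells, measured 280, 190 and 145 CPM in control libraries 1, 2 and 3 and 118, 54.2 and 60.1 CPM in NaCl libraries 1, 2 and 3. Mouse 1 had the highest level in both groups, and the groups did not overlap. The means were 205 ± 68.8 and 77.6 ± 35.5 CPM (SD, n = 3) and differed by -62.2%. The fitted log2 fold change was -1.40 (SE 0.32, 95% interval -2.11 to -0.69, adjusted p = 0.0971 by edgeR's quasi-likelihood test), and 1.72% of all genes had a lower one. The ratio within each mouse was steadier than the levels: -1.24, -1.81 and -1.27 on the log2 scale. Pairing by mouse gave -1.44 (SE 0.13, adjusted p = 1.95e-08 by edgeR with the replicate block) and DESeq2 without pairing gave an adjusted p of 0.000934. Left without NaCl 1, the unpaired fit passed the threshold as well (-1.84, adjusted p = 0.0180 by edgeR), and it did not pass without any other single library.

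**Figure D2:**
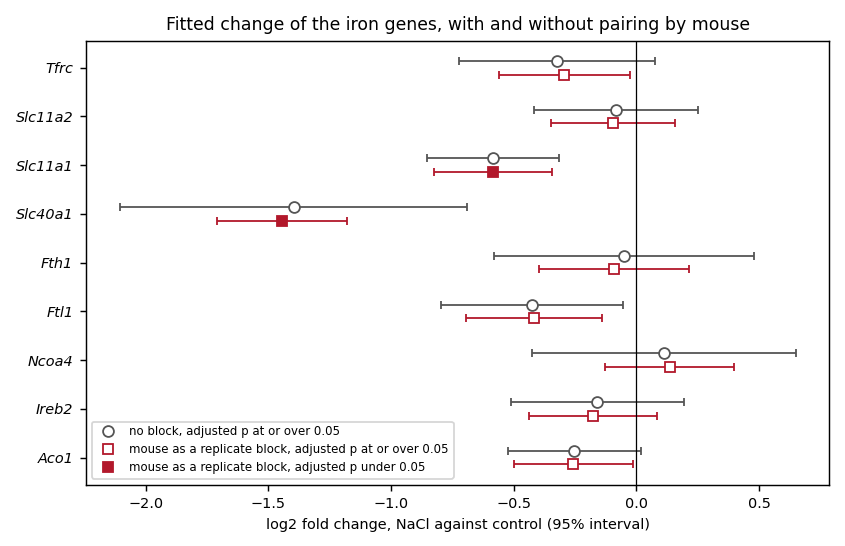
Fitted log2 fold change of each iron gene, NaCl against control, with its 95% interval (horizontal axis), from edgeR without pairing (grey circles) and paired by mouse (red squares, filled where the adjusted p was under 0.05). The filled squares are Slc11a1 and Slc40a1, at -0.59 and -1.44, and no circle is filled.

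Slc11a1 (ENSMUSG00000026177.12, chromosome 1) transports divalent metals across the phagosome membrane, and C57BL/6 mice are known to carry an impaired form of the protein. It measured 405, 450 and 442 CPM in control and 306, 286 and 272 CPM in NaCl. All 3 mice were lower in NaCl, with little spread inside either group. The means were 432 ± 23.9 and 288 ± 17.0 CPM (SD, n = 3) and differed by -33.4%. The fitted change was -0.59 on the log2 scale (SE 0.12, 95% interval -0.86 to -0.32), with an adjusted p of 0.0719 by edgeR, 0.00151 with the replicate block and 0.00181 by DESeq2. The ratios within mice were -0.40, -0.65 and -0.70.

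The paralog Slc11a2 (ENSMUSG00000023030.17, chromosome 15), the endosomal iron transporter, measured 69.9, 63.0 and 61.3 CPM in control and 65.2, 68.0 and 49.3 CPM in NaCl. The groups overlapped, and the lowest library was the shallow NaCl 3. The fitted difference was -0.08 on the log2 scale (SE 0.15, 95% interval -0.42 to 0.25, adjusted p = 0.870 by edgeR). Taken as a ratio within each library, which no scaling between libraries can move, the log2 ratio of Slc11a1 to Slc11a2 counts was 2.53, 2.83 and 2.85 in control and 2.23, 2.07 and 2.46 in NaCl. It was lower in NaCl in all 3 mice, by a mean of -0.48, at the smallest p that 3 against 3 libraries allow (exact two-sided permutation test, p = 0.1). Some 6.33% of the Slc11a2 exon bases overlap Gm5475 on the opposite strand, and the counting did not use strand.

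Tfrc (ENSMUSG00000022797.17, chromosome 16), the transferrin receptor, measured 206, 342 and 257 CPM in control and 209, 208 and 226 CPM in NaCl. The control libraries were widely spread and the NaCl libraries were not, and the lowest library of all was a control. A log2 fold change of -0.32 was fitted (SE 0.18, 95% interval -0.72 to 0.07), with an adjusted p of 0.497 by edgeR and 0.173 with the replicate block. Mouse 2 differed by -0.71, while mice 1 and 3 differed by 0.02 and -0.18.

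Of the ferritin chains, Fth1 (ENSMUSG00000024661.8, chromosome 19), whose protein oxidises iron as it enters the shell, measured 11143, 13382 and 15376 CPM in control and 10503, 18095 and 9946 CPM in NaCl. The NaCl libraries held both the highest and the lowest of the 6 values. For Fth1 the log2 fold change was -0.05 (SE 0.24, adjusted p = 0.961 by edgeR), and the 95% interval, -0.58 to 0.48, leaves room for a change of either sign. Mice 1, 2 and 3 differed by -0.09, 0.44 and -0.63. Without mouse 2 the paired fit gave -0.35 (adjusted p = 0.0208 by edgeR with the replicate block) and without mouse 3 it gave 0.18, so 1 mouse set the sign.

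Ftl1 (ENSMUSG00000050708.17, chromosome 7), the light chain that helps the iron core form, measured 2041, 2840 and 2738 CPM in control and 2091, 1943 and 1635 CPM in NaCl. Control 1 was as low as the NaCl libraries, so the groups overlapped. The means were 2540 ± 435 and 1890 ± 233 CPM (SD, n = 3). On the log2 scale NaCl minus control came to -0.43 (SE 0.17, 95% interval -0.80 to -0.06), with an adjusted p of 0.333 by edgeR and 0.0503 with the replicate block, and that blocked fit passed only without mouse 2 (-0.34, adjusted p = 0.0131). Mouse 1 differed by 0.04 and mice 2 and 3 by -0.55 and -0.74.

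The Ftl1 values are uncertain in level: of the windows of 75 bases, the read length, that its transcripts hold, 51.3% also occur in other genes such as Ftl1-ps1 and Gm10252, and 34.6% of its exon bases overlap other genes. Reads that match several places or overlapping genes are not counted by the aligner's gene counter. Ftl1-ps1 held 3 to 7 counts per library, and of the ferritin pseudogenes Fth1-ps had the most, 20 to 127 counts, or 0.0463% of the Fth1 counts (it was added to the pseudogenes after its values were seen). Of the Fth1 windows, 0.882% were shared. Both ferritin genes together took 1.36%, 1.58% and 1.78% of all counts in control and 1.31%, 1.90% and 1.18% in NaCl. These shares differed by -0.11 percentage points on average (exact two-sided permutation test, p = 0.7). The 95% Wilson interval of NaCl 3, the shallowest, was 1.17% to 1.19%, so counting error, which is all that it covers, was far smaller than the spread between libraries.

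Ncoa4 (ENSMUSG00000056234.16, chromosome 14), the receptor that delivers ferritin for breakdown, measured 62.5, 35.0 and 34.9 CPM in control and 57.4, 41.1 and 43.6 CPM in NaCl. Mouse 1 was highest in both groups, and the groups overlapped. A log2 fold change of 0.11 was fitted (SE 0.24, 95% interval -0.43 to 0.65, adjusted p = 0.894 by edgeR), the only one of the 9 above 0. Of its 75-base windows, 16.9% are shared with the pseudogene Gm6768.

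The regulator Aco1 (ENSMUSG00000028405.10, chromosome 4), an enzyme that becomes IRP1 when it loses its iron-sulfur cluster, measured 89.7, 91.5 and 82.7 CPM in control and 76.5, 75.9 and 68.5 CPM in NaCl. The groups did not overlap, and the mice were alike, at -0.23, -0.27 and -0.27. The log2 fold change was -0.25 (SE 0.12, 95% interval -0.53 to 0.02), with an adjusted p of 0.427 by edgeR and 0.192 with the replicate block. A small difference common to all 3 mice was thus not past the threshold in either fit.

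Ireb2 (ENSMUSG00000032293.9, chromosome 9), whose protein IRP2 is broken down when iron is plentiful, measured 100.4, 101 and 99.5 CPM in control and 92.4, 70.8 and 108 CPM in NaCl. The control libraries were close together and the NaCl libraries lay on both sides of them. The log2 fold change was -0.16 (SE 0.16, 95% interval -0.51 to 0.19, adjusted p = 0.730 by edgeR). The log2 ratio of Ireb2 to Aco1 within libraries differed by 0.08 (exact two-sided permutation test, p = 0.7).

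The log2 ratio of Tfrc to Fth1 sets an importer, with its elements in the 3′ UTR, against the storage chain with its element in the 5′ UTR. It was -5.76, -5.29 and -5.90 in control and -5.65, -6.44 and -5.46 in NaCl. The groups overlapped, and the mice differed by 0.11, -1.15 and 0.45, a mean of -0.20 (exact two-sided permutation test, p = 0.7). The log2 ratio of Ftl1 to Fth1 was -2.45, -2.24 and -2.49 in control and -2.33, -3.22 and -2.61 in NaCl. NaCl 2 and 3 lay below the control range and NaCl 1 within it, for a mean difference of -0.33 (exact two-sided permutation test, p = 0.4). With the ferritin share, 5 such values were compared, and their Benjamini-Hochberg adjusted p ranged from 0.5 to 0.7 (exact permutation).

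**Figure D3:**
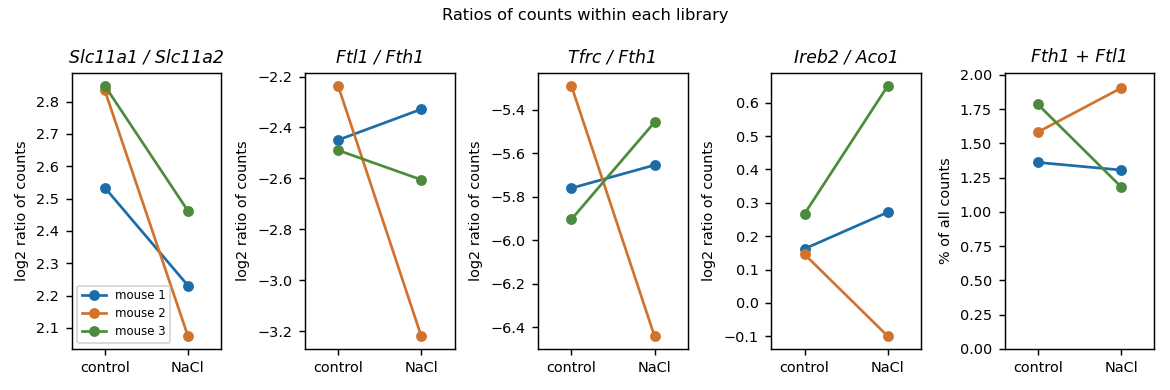
Log2 ratio of raw counts of 4 gene pairs and the share of Fth1 and Ftl1 in all counts (vertical axes, the share from 0) in the control and NaCl library of each mouse. The Slc11a1 to Slc11a2 ratio is lower in NaCl in all 3 mice, and the other panels hold lines in both directions.

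Levels can be compared between genes only per length, here in CPM per kilobase of the principal transcript, a length chosen after values under other choices had been seen. In control, Fth1 led with 14317 ± 2279 CPM per kilobase (SD, n = 3), followed by Ftl1 with 2624 ± 450 and Slc11a1 with 187 ± 10.3. Slc40a1 (60.9 ± 20.4) and Tfrc (54.8 ± 14.1) overlapped in control, as did Aco1 (21.6 to 23.9) and Slc11a2 (20.3 to 23.1). The levels of Ireb2 (17.4 ± 0.144) and Ncoa4 (13.2 ± 4.77) overlapped too. In NaCl the exporter lay below the importer, with 16.1 to 35.1 CPM per kilobase for Slc40a1 and 42.6 to 46.3 for Tfrc. With the union of all exons as the length, that order held already in control, at 22.8 ± 7.65 for Slc40a1 and 43.4 ± 11.1 for Tfrc. By that length Fth1 stood at 3834 ± 610 and Ftl1 at 1895 ± 325 in control. The gap between Fth1 and Ftl1 is uncertain in size, since it varied with the length used. Other genes also share 51.3% of the Ftl1 windows, against 0.882% of those of Fth1.

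Genes with the most similar pattern over the 6 libraries were looked up among 9923 genes with a mean of at least 50 counts, by Pearson's r of log2 CPM. These correlations describe 6 libraries that share groups, mice and depth. Slc40a1 was most like Mertk (r = 0.997), a receptor for the uptake of dying cells, and Cog6 (0.996), a Golgi tether, and 150 genes had an r above 0.95. Slc11a1 was most like Nsun3 (0.996), a methyltransferase for mitochondrial tRNA, and Tmem205 (0.993), with 123 genes above 0.95. Fth1 was most like Rmc1 (0.995) and Edf1 (0.994), with 58 such genes, and Tfrc was most like the transcription factor Stat6 (0.990) and the neutrophil granule gene Ngp (0.976), with 7.

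The rest of iron and haem handling was covered by 92 other genes, of which 79 were tested. Without pairing, 0 rose and 1 fell, the haem-degrading enzyme Hmox1 (0.478% and 0.176% of all genes rose and fell). At an unadjusted p under 0.05 there were 10 of 79 (12.7%, beside 12.6% of all genes). DESeq2 called 1 higher and 1 lower (1.54% and 0.975% of all genes). With the replicate block, edgeR called 3 higher and 3 lower, 3.8% of the 79 in each direction, beside 4.6% and 4.3% of all genes. The shares at an unadjusted p under 0.05 and with the block were near or under those of all genes. The median log2 fold change was -0.05, beside -0.01.

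**Figure D4:**
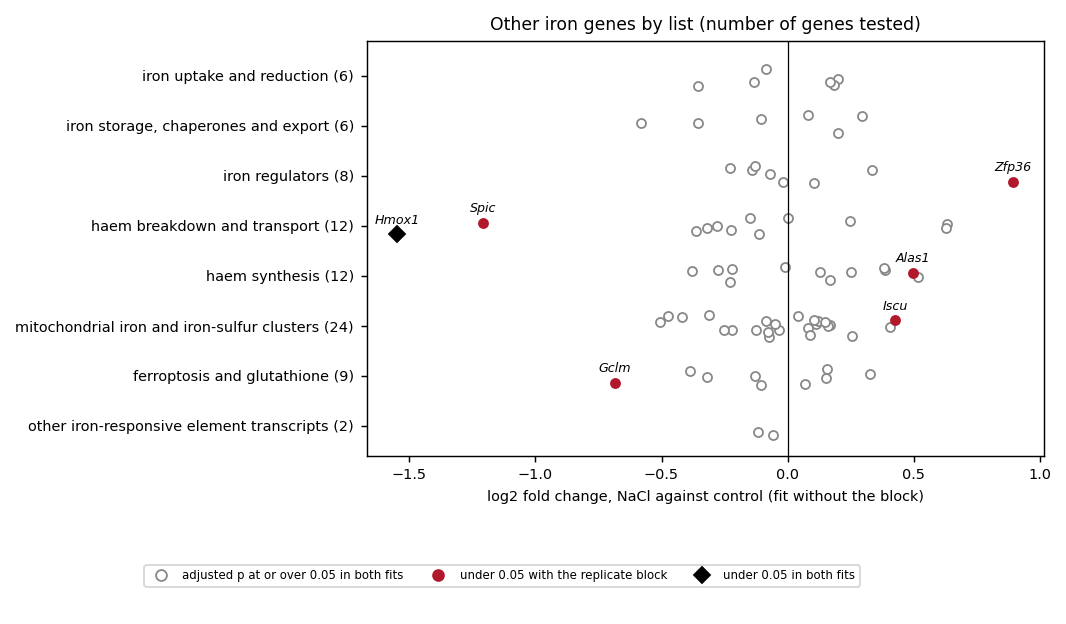
Log2 fold change of the 79 other iron genes tested, NaCl against control (horizontal axis), 1 point a gene and 1 row a list, with each gene shown in the first list that holds it. Hmox1 (diamond, -1.55) is under an adjusted p of 0.05 in both edgeR fits and 5 further named genes only with the replicate block.

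Hmox1, which frees iron from haem, measured 1291, 3101 and 2648 CPM in control and 655, 925 and 830 CPM in NaCl. The groups did not overlap, and control 1 was the lowest control by a wide gap. The log2 fold change was -1.55 (SE 0.29, adjusted p = 0.0480 by edgeR, 4.54e-08 with the replicate block). That call without pairing was close to the threshold: it stood only without control 1 (adjusted p = 0.00307 by edgeR) and was lost without any other single library (0.0693 to 0.304 by edgeR).

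Of the 12 genes of haem breakdown and transport, Spic, the transcription factor of iron-recycling macrophages, fell with the block but not in the test without it, from 4.66 ± 1.51 to 1.93 ± 0.844 CPM (SD, n = 3). Its log2 fold change was -1.21 (SE 0.37, adjusted p = 0.209 by edgeR and 0.00305 with the replicate block), and all 3 mice were lower. At this low level the call varied: it was lost in DESeq2 with the block (adjusted p = 0.0603) and in edgeR with the block on thinned counts (0.169), and an unblocked edgeR fit with a minimum total count of 1 passed (0.0174). The haem transporter Slc48a1, the most abundant of the list after Hmox1, stood at 588 ± 83.7 and 543 ± 43.6 CPM (adjusted p = 0.799 by edgeR). The median of the list was -0.19.

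Of the 8 tested iron regulators, Zfp36, which codes for the RNA-destabilising protein tristetraprolin, rose with the block and by DESeq2. It measured 166, 114 and 123 CPM in control and 205, 265 and 278 CPM in NaCl, with no overlap. Its log2 fold change was 0.89 (SE 0.18), with an adjusted p of 0.0613 by edgeR, 0.000105 with the replicate block and 0.000856 by DESeq2. The stress regulator Nfe2l2, the other abundant gene of this list, stood at 205 ± 27.3 and 188 ± 37.9 CPM (adjusted p = 0.810 by edgeR). The 5 regulators not tested were the hepcidin genes Hamp and Hamp2, Hjv, Bmp6 and Tmprss6.

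In haem synthesis, Alas1, the first and rate-limiting enzyme, rose with the block but not in the test without it: 238, 289 and 353 CPM in control against 342, 483 and 418 in NaCl. The fitted log2 fold change was 0.50 (SE 0.18, adjusted p = 0.293 by edgeR, 0.00779 with the replicate block). Each mouse was higher in NaCl although the groups overlapped. The mitochondrial haem gene Tmem14c stood at 106 ± 14.8 and 106 ± 6.33 CPM. The other 11 tested enzymes and transporters of this list were not past the threshold in either fit.

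Among 24 genes of mitochondrial iron and iron-sulfur clusters, the scaffold Iscu, on which clusters are built, rose with the block but not in the test without it, from 40.6 ± 3.11 to 54.4 ± 6.74 CPM (log2 fold change 0.43, SE 0.14, adjusted p = 0.257 by edgeR, 0.0361 with the replicate block, 0.105 by DESeq2 with the block). The chaperone Hspa9 (360 ± 79.5 and 290.1 ± 65.5 CPM) was the most abundant and passed in neither fit. The median of this list was 0.00. In the list of ferroptosis and glutathione genes, Gclm, a subunit of the glutathione-synthesising ligase, fell with the block but not in the test without it (320 ± 119 to 200 ± 61.8 CPM, log2 fold change -0.68, SE 0.29, adjusted p = 0.378 by edgeR, 0.00443 with the replicate block). An unblocked edgeR fit with a minimum total count of 1 passed as well (0.00123). The lipid peroxide reductase Gpx4, also abundant there, stood at 143 ± 8.16 and 158 ± 52.5 CPM.

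No other uptake, storage or export gene passed in either fit. Of the 6 tested uptake genes, the receptor Lrp1, which clears haem bound to hemopexin, stood at 4648 ± 408 and 5219 ± 1501 CPM and the reductase Steap3 at 59.6 ± 3.76 and 67.6 ± 8.78 CPM. Of the 6 tested storage and export genes, the iron chaperone Pcbp2 was above control in every NaCl library (219 ± 16.7 and 268 ± 33.9 CPM, adjusted p = 0.410 by edgeR and 0.139 with the replicate block), and the lysosomal ATPase Atp13a2 stood at 415 ± 69.1 and 386 ± 103 CPM. The 9 genes known to carry an iron-responsive element include 5 of the iron genes described first. With the block, 4.3% of all genes fell and 4.6% rose, and 1 of these 9 passed, Slc40a1. Epas1, which codes for a hypoxia-inducible factor, did not (11.3 ± 4.06 and 14.3 ± 4.79 CPM), and the median of the list was -0.08.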

How the data were processed

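Polyadenylated RNA of 6 BMDM libraries (3 unstim, 3 NaCl) was sequenced with a kit that does not mark strand. According to the study's methods, 75 bp reads were trimmed with fastp 0.20.0 and counted per gene with STAR 2.7.10b on mm10 with GENCODE vM32, an annotation that belongs to a later build, so genes are placed here by chromosome only. The deposited raw counts per gene were tested. The deposited signal table, counts divided by the authors' DESeq2 1.40.2 size factors, served for gene symbols and a check of those factors. The authors' table holds no genes with a total count under 10.

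Counts were fitted with edgeR 4.0.16 (quasi-likelihood, TMM, total count of at least 10, no covariate after the study's own design, which has none) in R 4.3.3, with Benjamini-Hochberg adjustment over 15903 genes and a threshold of 0.05. The pairing by mouse comes from the labels, which give both libraries of a number the same animal. Same-mouse deviations from the group means correlated at 0.43, 0.15 and 0.22 and other pairs at -0.35 to 0.12. Alternatives were the mouse as a block, DESeq2 1.42.0, limma-voom (limma 3.58.1), other scalings and filters, thinning to the smallest library and leaving out libraries or mice. Scripts were tested on simulated data, and the limit for passing was lowered after a first run that just missed it. Data were also simulated with built-in differences between mice, of a size not fitted to these libraries. The fit without the block then recovered far fewer of the changed genes than the fit with it. The setting fixed that outcome, so it does not show which fit suits these data. Few calls without the block also do not show that genes were unchanged. Ratios were compared by exact permutation. Library totals were 4088065 to 20123570 counts, with 3 libraries per group.

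The members and lists were chosen with earlier results of these data known. Named genes are the 9 members, the genes of other lists past the threshold with or without the block, the 2 most abundant tested genes of each iron list and, for 4 members, the 2 most correlated genes. Some genes that this rule names are not reported here. Listed iron genes that are not named passed in neither fit. The stem-loop search, run with Python 3.11.15, was loosened to 4 pairs and the length per kilobase set to the principal transcript after first results of each were seen.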

Additional observations from a re-analysis of the deposited data

How the results depend on the processing

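Of 19 alternative fits, all 19 kept the sign of Slc40a1 (-1.84 to -1.10, past the threshold in 9) and of Slc11a1 (-0.67 to -0.52, past it in 8). Without pairing, iron genes called lower were 0, other iron genes higher 0 and other iron genes lower 1. With the replicate block these counts were 2, 3 and 3, with DESeq2 with the replicate block 2, 2 and 2, and with DESeq2 alone 2, 1 and 1. Limma-voom, median-ratio size factors, filterByExpr and an adjusted p under 0.01 each gave 0 other iron genes lower in place of 1. With a minimum total count of 1 the counts were 2, 1 and 3, and with thinning and the block 2, 3 and 2. The block without mouse 1 gave 2, 1 and 3, without mouse 2 it gave 4, 5 and 6, and without mouse 3 it gave 2, 3 and 3. In those fits each mean rests on 2 mice and the spread is borrowed from all genes. The share of all genes called was worked out only for the main edgeR fit, the same fit with the block, and DESeq2 alone. Counts from the other fits have no such share beside them, so they are not a result about iron genes. Leaving out 1 library without pairing gave 0 to 1 for each count. Signs turned for Slc11a2 (0.00077 when thinned, 0.013 with the block without mouse 3, -0.16 to 0.041 without 1 library), Fth1 (0.18 with the block without mouse 3, -0.37 to 0.11 without 1 library), Ireb2 (0.0030 with the block without mouse 2) and Ncoa4 (-0.052 to 0.45 without 1 library). Without 1 library, the difference in the log2 ratio of Tfrc to Fth1 ran from -0.40 to 0.096, of Ftl1 to Fth1 from -0.52 to -0.075, of Ireb2 to Aco1 from -0.11 to 0.27 and of Slc11a1 to Slc11a2 from -0.59 to -0.39, and that in the ferritin share from -0.33 to 0.029 percentage points. None of the values with a turned sign was past the threshold, and the cause was not tested. With 3 mice, intervals for Fth1 and Ncoa4 reach about 0.5 on the log2 scale on both sides of 0.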

Other observations

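Both libraries of mouse 1 stood apart in several lists, a pattern seen after the values were known. B cell markers summed to 57.0 CPM in its control and 59.7 CPM in its NaCl library, against 13.9 to 16.1 CPM in the other 4 libraries. Monocyte markers summed to 326 and 386 CPM, against 185 to 227 CPM in the others. Slc40a1 and Ncoa4 were also highest in mouse 1 within each group, at 280 and 118 CPM for Slc40a1 and 62.5 and 57.4 CPM for Ncoa4, and Hmox1 was lowest there within each group, at 1291 and 655 CPM. Within mouse 1 the direction of Slc40a1 and of Hmox1 was that of the other mice, at -1.24 and -0.98 on the log2 scale. The part of these marker levels in the iron genes was not tested.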
